A study of Mus musculus with 24 samples.

Results

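The 49 genes described here encode proteins of mitosis and cytokinesis, from the cyclins and kinases of mitotic entry to the motors, kinetochore proteins and spindle proteins that move chromosomes and the proteins that divide the cell. They were taken as a list of gene symbols, and their probes were those non-control probes of the array whose gene name in the scanner files equals a listed symbol. All 49 genes had at least 1 tested probe, among 22088 tested genes in all, and they were read by 96 of the 56605 non-control probes, of which 79 were tested. The list was not chosen by a threshold on these values, but it was drawn up with earlier results of these data known. The study measured liver RNA of 24 female mice, each on its own 1-colour Agilent array, with 6 mice in each of 4 groups. KO mice lack LXRalpha and LXRbeta, nuclear receptors for oxysterols (genes Nr1h3 and Nr1h2), and WT mice carry both. Both genotypes had the sv129/C57 background, and the mice were 8 weeks old. KO FB1 and WT FB1 mice received fumonisin B1 (FB1), a fungal toxin that inhibits ceramide synthases, at 10 mg/kg per day for 1 month, while KO control and WT control mice received water. The labels name no promoter, Cre or cell type for the deletion, and they do not state which exons were removed.

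Mitosis begins when cyclin B binds and activates the kinase CDK1, and it ends when the anaphase-promoting complex (APC/C) marks cyclin B and securin for destruction, so that separase can release the sister chromatids. Between these steps the spindle checkpoint holds the APC/C coactivator CDC20 inactive until every kinetochore is attached. Genes for these proteins are read in late S, G2 and M phase, and in resting cells they are held down by a repressor complex called DREAM. Adult hepatocytes rarely divide, so the RNAs of these genes are sparse in a resting liver and rise when the liver regenerates.

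Values are log2 of the processed spot signal minus the array's 75th percentile, so a value of 0 is the level that 25% of the spots exceed, and a difference of 1 is 2-fold. Of the 59305 non-control spots of an array, 58.7% to 64.5% stood clear of background, and 75th percentiles ranged between 490 and 685. Each of the 3 slides carried 2 arrays of every group, and correlations over genes within a group were 0.984 to 0.994. The Nr1h3 probe lay between -5.12 and -2.56 in KO FB1 arrays and between -5.13 and -3.98 in KO control arrays, against 4.71 to 4.95 in WT FB1 arrays and 4.76 to 5.06 in WT control arrays. The Nr1h2 probe lay between 0.31 and 0.80 in all KO arrays and between 4.02 and 4.34 in all WT arrays. Precision is limited by the number of arrays. A gene was called higher or lower at a Benjamini-Hochberg adjusted p under 0.05 over all 22088 genes, from limma fitted to all 24 arrays. Values after ± are standard errors of a difference between group means of 6 arrays each. For a difference of the FB1 effects between genotypes, they are the standard error of that difference, which draws on all groups. Positions of probes are those of the files, build mm9, and no annotation of that build was used to place them in exons.

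FB1 raised nearly the whole list in both genotypes. In KO livers 47 of the 49 genes were called higher and 0 lower, where 16.5% of all tested genes were called higher and 24.6% lower. In WT livers 45 of the 49 genes were called higher and 0 lower, where 2.06% of all tested genes were called higher and 0.824% lower. The median log2 difference of the list was 2.55 in KO livers and 2.16 in WT livers, beside medians over all genes of -0.075 in KO and -0.030 in WT. Of the 49 genes, 8 passed the filter on detection only through an FB1 group, so those had to differ. Of the 41 that also passed in a control group, 39 were called higher in KO and 37 in WT, with medians of 2.48 in KO and 2.09 in WT. Called and at least 2-fold higher were 46 of the 49 in KO (4.61% of all genes) and 44 of the 49 in WT (1.09%). The 6 FB1 arrays lay entirely above the 6 control arrays for 46 of the 49 genes in KO, where 8.89% of all genes with complete values did so. In WT the same held for 33 of the 49 genes, beside 1.29%. In RNA of a whole organ, more dividing cells and more RNA per dividing cell cannot be told apart.

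The list moved as a block from array to array. Each gene was expressed as its deviation from its WT control mean, and the median over the 49 genes was taken on each array. This median lay between 1.81 and 3.45 in KO FB1 arrays, with a middle value of 2.67, against -0.070 to 0.72 in KO control arrays, with a middle value of 0.094. It lay between 1.32 and 2.82 in WT FB1 arrays, with a middle value of 2.28, against -0.96 to 1.13 in WT control arrays, with a middle value of -0.28. Neither pair of groups overlapped, but WT FB1 replicate 4 lay only slightly above WT control replicate 6. The same arrays were extreme for most genes. KO FB1 replicate 5 was the lowest of its group for 45 of the 49 genes, and KO control replicate 4 was the highest of its group for 38. WT FB1 replicate 5 was the highest of its group for 35 genes and replicate 4 the lowest for 35. WT control replicate 6 was the highest of its group for 34 genes and replicate 4 the lowest for 38. Over the 24 arrays, the deviations of a gene from its group means correlated with those of another member at a median r of 0.860, a description of values that share arrays and scaling. The 15 constitutive APC/C subunits, processed in the same way, gave a median r of 0.048. The ubiquitin-conjugating enzyme gene Ube2c had the highest median correlation with the other members (0.928), and Spc24 (0.456) and Kif23 (-0.012) had the lowest.

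**Figure D1:**
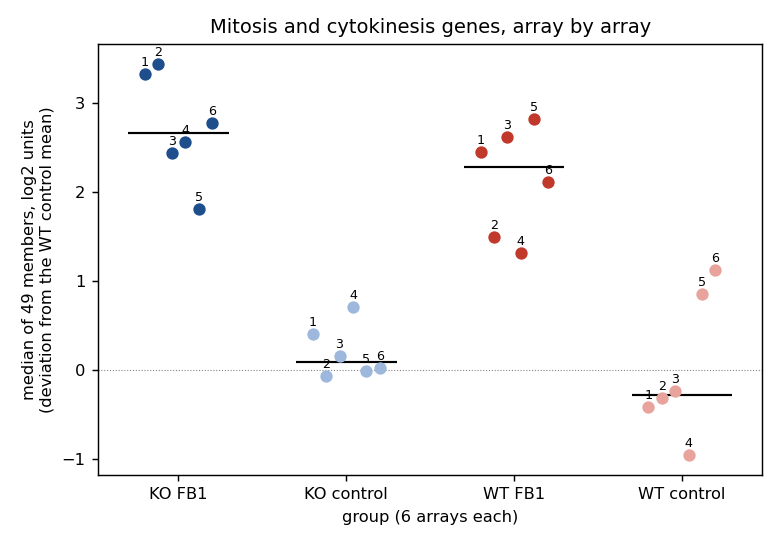
Median over the 49 mitosis and cytokinesis genes of the log2 deviation from the WT control mean (vertical axis), for each of the 6 arrays of KO FB1, KO control, WT FB1 and WT control (horizontal axis). Points are arrays with their replicate number, and black lines are group medians. FB1 arrays lie at 1.32 or above and control arrays at 1.13 or below.

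Because the members moved together, their promoters were examined for the letters of a pair of elements known from late cell cycle genes. RefSeq promoter windows of build GRCm38.p6, which run from 250 bases before to 50 bases after the start, were at hand for 41 of the 49 genes. The cell cycle genes homology region (CHR), the element through which DREAM acts, was searched as TTTGAA, and the box read by the factor NF-Y as CCAAT, each on both strands, so that TTCAAA and ATTGG also count. The motifs were searched independently and can share a letter. In the Cdca8 window a TTTGAA match begins at 13 bases from the start and a CCAAT match at 18. TTTGAA stood in the windows of 31 of the 41 genes (75.6%) and of 20.2% of the 27025 genes with a window. Within 50 bases of the start it stood in 27 of the 41 (65.9%), against 5.7% of all genes with a window. CCAAT stood in 78.0% of the members' genes against 41.1% of all, and both motifs stood in 68.3% against 8.0%. Where a CCAAT lay upstream of a TTTGAA, the nearest such pair of first letters was a median of 28 bases apart in members and 59 in all genes. Of a list of further mitosis genes, the 70 with a window lay between, with TTTGAA in 45.7%, near the start in 35.7%, CCAAT in 62.9% and both in 31.4%. The window of an APC/C subunit gene held TTTGAA in 14.3% of 14 genes. The 150 bases before the start are printed for members whose promoters hold both motifs close to the start, with motif letters in capitals.
Cdc20, chr4:118437344-118437493, minus strand: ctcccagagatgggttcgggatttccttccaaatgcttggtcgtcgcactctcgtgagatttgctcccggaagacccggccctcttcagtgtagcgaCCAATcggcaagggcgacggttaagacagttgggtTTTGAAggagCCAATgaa
Cdk1, chr10:69352913-69353062, minus strand: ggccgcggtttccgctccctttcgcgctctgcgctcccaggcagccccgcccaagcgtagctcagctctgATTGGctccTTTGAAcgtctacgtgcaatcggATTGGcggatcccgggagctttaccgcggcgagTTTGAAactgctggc
Ube2c, chr2:164769779-164769928, plus strand: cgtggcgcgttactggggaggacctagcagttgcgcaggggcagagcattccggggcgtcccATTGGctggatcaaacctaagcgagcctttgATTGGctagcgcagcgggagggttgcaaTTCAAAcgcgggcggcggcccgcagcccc
Top2a, chr11:99024190-99024339, minus strand: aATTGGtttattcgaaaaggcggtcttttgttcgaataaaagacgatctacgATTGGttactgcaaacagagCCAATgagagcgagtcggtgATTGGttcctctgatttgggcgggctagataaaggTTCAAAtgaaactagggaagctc
Kif11, chr19:37376232-37376381, plus strand: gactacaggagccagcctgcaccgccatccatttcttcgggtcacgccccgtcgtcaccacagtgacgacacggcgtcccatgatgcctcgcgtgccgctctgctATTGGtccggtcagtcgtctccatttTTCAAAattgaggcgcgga
Espl1, chr15:102296143-102296292, plus strand: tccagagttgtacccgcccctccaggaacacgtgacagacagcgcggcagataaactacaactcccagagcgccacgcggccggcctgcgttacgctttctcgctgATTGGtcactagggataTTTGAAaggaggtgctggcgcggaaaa

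Neither motif stood anywhere in the window, from 250 bases before to 50 after the start, of 6 members (Birc5, Melk, Mad2l1, Pttg1, Nuf2 and Nusap1). The 150 bases before the start are printed for Birc5 and Melk as examples of these.
Birc5, chr11:117849087-117849236, plus strand: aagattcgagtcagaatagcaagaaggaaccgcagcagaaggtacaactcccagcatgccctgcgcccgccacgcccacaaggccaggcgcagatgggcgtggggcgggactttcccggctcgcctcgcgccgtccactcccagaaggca
Melk, chr4:44300767-44300916, plus strand: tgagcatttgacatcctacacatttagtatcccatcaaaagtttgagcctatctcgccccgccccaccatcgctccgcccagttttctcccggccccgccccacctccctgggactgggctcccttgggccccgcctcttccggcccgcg

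The responses of members with and without TTTGAA were set side by side. In KO livers the median log2 difference after FB1 was 2.60 in the 31 genes with TTTGAA and 2.47 in the 10 genes without it. In WT livers it was 2.02 in the 31 genes and 2.25 in the 10. The Kif23 window holds TTTGAA, while the Kif23 probe used here did not pass the test in either genotype. A match is a description of the letters, and no match says only that they are not in that window.

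The 7 genes of mitotic entry were called higher after FB1 in both genotypes, with median log2 differences of 2.75 in KO and 2.37 in WT. Cdk1, the kinase whose activation starts mitosis, lay between -2.09 and -0.50 (median -1.203) in KO FB1 arrays and between -4.41 and -3.42 (median -3.92) in KO control arrays. In WT livers it lay between -2.28 and -0.95 (median -1.51) with FB1 and between -5.02 and -2.53 (median -4.17) without. In neither genotype did the groups overlap, and the highest WT control array came close to the lowest WT FB1 array. The log2 difference was 2.74 ± 0.34 in KO (adjusted p = 1.93e-06) and 2.37 ± 0.34 in WT (adjusted p = 0.000492). Ccnb2 encodes cyclin B2, a partner of CDK1. Its signal lay between 0.74 and 2.33 (median 1.98) in KO FB1 arrays, against between -1.22 and -0.51 (median -1.07) in KO control arrays. WT FB1 arrays lay between 0.47 and 1.96 (median 1.36), and WT control arrays between -2.19 and 0.029 (median -1.33). Every FB1 array was above every control array of its genotype, by differences in means of 2.75 ± 0.34 in KO (adjusted p = 2.01e-06) and 2.34 ± 0.34 in WT (adjusted p = 0.000562). Cdkn3, a phosphatase that acts on CDK1 and CDK2, lay between -2.51 and -0.55 (median -1.07) in KO FB1 arrays and between -5.08 and -3.97 (median -4.74) in KO control arrays. Its WT values ran between -2.28 and -0.75 (median -1.69) in WT FB1 arrays and between -6.05 and -3.05 (median -5.20) in WT control arrays, where 5 of the 6 arrays were well above background. The groups did not overlap in either genotype. Its differences, 3.42 ± 0.44 in KO and 3.11 ± 0.44 in WT (adjusted p = 3.14e-06 and 0.000457), were 10.7-fold and 8.64-fold. Ccnb1 (cyclin B1), Ccna2 (cyclin A2) and Cdc25c (a phosphatase that activates CDK1) rose by 2.44 to 3.36 in KO and by 1.98 to 3.06 in WT. The smallest rise of the 7 was that of Foxm1, a transcription factor for G2 and M phase genes, at 1.63 ± 0.23 in KO and 1.27 ± 0.23 in WT.

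The 4 mitotic kinases outside the entry group were called higher after FB1 in both genotypes, by 2.20 to 2.78 in KO and by 2.02 to 2.33 in WT. Plk1, polo-like kinase 1, acts from centrosome maturation to cytokinesis. Its signal lay between 0.034 and 1.91 (median 1.08) in KO FB1 arrays and between -1.67 and -1.05 (median -1.50) in KO control arrays. Among WT arrays it ranged between -0.37 and 1.13 (median 0.53) with FB1 and between -2.13 and -0.70 (median -1.86) without. WT control replicates 5 and 6 stood above the other 4 controls, yet below every WT FB1 array. The log2 difference of Plk1 was 2.58 ± 0.31 in KO (adjusted p = 1.57e-06) and 2.02 ± 0.31 in WT (adjusted p = 0.00069). Nek2, a kinase of centrosome separation, lay between -2.03 and -0.66 (median -1.13) in KO FB1 arrays and between -4.79 and -3.33 (median -3.99) in KO control arrays, and between -2.44 and -1.16 (median -1.82) in WT FB1 arrays and between -4.90 and -2.55 (median -4.23) in WT control arrays. The Nek2 groups did not overlap in KO or WT, and in WT the gap between the lowest FB1 and the highest control array was narrow. Its differences were 2.78 ± 0.36 in KO (adjusted p = 3.59e-06) and 2.17 ± 0.36 in WT (adjusted p = 0.00116). Aurka, the kinase of spindle poles, rose by 2.63 ± 0.35 in KO and 2.09 ± 0.35 in WT. Melk, a kinase abundant in proliferating cells, rose by 2.20 ± 0.48 in KO and 2.33 ± 0.48 in WT, where 3 of the 6 control arrays were well above background.

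The spindle checkpoint and the exit machinery rose together, with 8 of 8 genes called higher in each genotype. Of these, Bub1, Bub1b and Ttk passed the detection filter only through an FB1 group, so those had to differ. Cdc20, the coactivator through which the checkpoint controls the APC/C, had the largest log2 difference of the list in KO livers. It lay between 1.36 and 3.31 (median 2.51) in KO FB1 arrays and between -1.98 and -0.71 (median -1.42) in KO control arrays. In WT livers it lay between 0.9997 and 2.81 (median 2.07) with FB1 and between -2.78 and 0.45 (median -1.88) without. The FB1 arrays lay above all control arrays of their genotype, and WT control replicates 5 and 6 lay well above the other WT control arrays. The difference was 3.92 ± 0.49 in KO, or 15.2-fold (adjusted p = 2.15e-06), and 3.25 ± 0.49 in WT, or 9.53-fold (adjusted p = 0.000682). Ube2c, the ubiquitin-conjugating enzyme that works with the APC/C, lay between -0.13 and 1.77 (median 0.75) in KO FB1 arrays and between -2.31 and -1.45 (median -2.07) in KO control arrays. Values in WT livers ran between -0.69 and 1.18 (median 0.26) with FB1 and between -3.43 and -0.70 (median -2.63) without, and the lowest FB1 array barely exceeded the highest control array. Its differences were 2.87 ± 0.42 in KO (adjusted p = 1.43e-05) and 2.43 ± 0.42 in WT (adjusted p = 0.00145). Pttg1, securin, lay between 1.39 and 2.98 (median 2.67) in KO FB1 arrays and between -0.10 and 1.03 (median 0.61) in KO control arrays, and between 1.54 and 2.73 (median 2.04) in WT FB1 arrays and between 0.32 and 1.22 (median 0.63) in WT control arrays. Its groups did not overlap in either genotype, and its differences were 1.88 ± 0.27 in KO (adjusted p = 1.19e-05) and 1.36 ± 0.27 in WT (adjusted p = 0.00504). Espl1, the separase that securin restrains, rose by 2.05 ± 0.35 in KO and 1.72 ± 0.35 in WT. The checkpoint genes Mad2l1, Bub1, Bub1b and Ttk rose by 1.32 to 3.11 in KO and by 1.098 to 2.53 in WT, with Mad2l1 the lowest and Ttk the highest in each.

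The chromosomal passenger complex joins the kinase Aurora B to INCENP, survivin and borealin at centromeres and later at the midzone. Its 4 genes were called higher in KO livers, and 3 of the 4 in WT. Birc5, which encodes survivin, lay between 1.53 and 3.24 (median 2.70) in KO FB1 arrays and between -0.37 and 0.63 (median 0.023) in KO control arrays. WT livers showed values between 1.07 and 2.55 (median 1.99) with FB1 and between -0.93 and 0.83 (median -0.62) without. FB1 and control arrays were separate, and the differences were 2.59 ± 0.33 in KO (adjusted p = 2.71e-06) and 2.19 ± 0.33 in WT (adjusted p = 0.000682). Cdca8, borealin, lay between 0.12 and 1.58 (median 0.94) in KO FB1 arrays and between -1.25 and -0.67 (median -1.04) in KO control arrays, and between -0.29 and 0.82 (median 0.37) in WT FB1 arrays and between -2.03 and -0.45 (median -1.67) in WT control arrays. Its FB1 and control arrays were separate in each genotype, with differences of 1.98 ± 0.27 in KO (adjusted p = 5.77e-06) and 1.69 ± 0.27 in WT (adjusted p = 0.000791). Aurkb rose by 2.23 ± 0.39 in KO and 1.98 ± 0.39 in WT. Incenp, the scaffold, lay between 1.38 and 2.27 (median 1.78) in KO FB1 arrays and between 0.27 and 0.73 (median 0.44) in KO control arrays, without overlap. Among WT arrays it ranged between 0.38 and 1.56 (median 1.35) with FB1 and between -0.83 and 1.03 (median 0.35) without, and these groups overlapped. Incenp rose by 1.36 ± 0.25 in KO (adjusted p = 0.000171), while the WT difference of 0.90 ± 0.25 missed the threshold (adjusted p = 0.0534).

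Of the 7 kinesins, motor proteins that walk along or take apart microtubules, 6 were called higher in each genotype. Among these, Kif11, Kif2c, Kif4 and Kif18b passed the detection filter only through an FB1 group, so those had to differ. Kif20a, a motor of the central spindle and of cytokinesis, lay between -0.62 and 1.15 (median 0.44) in KO FB1 arrays and between -2.98 and -1.99 (median -2.72) in KO control arrays. WT FB1 arrays lay between -0.90 and 0.59 (median 0.00066), and WT control arrays between -3.49 and -1.53 (median -2.89). The groups did not overlap in either genotype. Its differences were 2.997 ± 0.35 in KO (adjusted p = 1.04e-06) and 2.49 ± 0.35 in WT (adjusted p = 0.000457). Kif22, a motor bound to chromosome arms, lay between 0.42 and 2.02 (median 1.22) in KO FB1 arrays and between -1.05 and -0.56 (median -0.77) in KO control arrays, and between 0.06 and 1.197 (median 0.78) in WT FB1 arrays and between -1.63 and -0.08 (median -1.30) in WT control arrays. Its FB1 arrays stood above the controls of their genotype, by 2.08 ± 0.27 in KO (adjusted p = 4.32e-06) and 1.77 ± 0.27 in WT (adjusted p = 0.000723). Kif4, a motor of chromosome arms and the midzone, was well above background on 3 of the 6 control arrays of each genotype. It lay between -4.01 and -2.57 (median -3.23) in KO FB1 arrays and between -6.10 and -5.38 (median -5.72) in KO control arrays. Values in WT livers ran between -5.01 and -3.18 (median -3.85) with FB1 and between -6.30 and -4.95 (median -5.59) without, and the lowest FB1 array fell below the highest control array. The difference was 2.55 ± 0.30 in KO (adjusted p = 1.19e-06) and 1.63 ± 0.30 in WT (adjusted p = 0.00271). Kif11, which pushes spindle poles apart, rose by 1.97 ± 0.33 in KO and 1.64 ± 0.33 in WT.

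Kif2c, which takes microtubules apart at centromeres, and Kif18b, a motor of astral microtubules, were near the detection limit without FB1. In KO livers 6 of 6 FB1 arrays and 0 of 6 control arrays were well above background for Kif2c, and the same held for Kif18b and for the spindle gene Ckap2l. Where 0 arrays of the dimmer group measured a gene, only a bound can be given, set by the lowest signal that still counted as well above background there. By that bound Kif2c was at least 6.09-fold higher with FB1 in KO livers, Ckap2l at least 4.59-fold and Kif18b at least 2.25-fold. In WT livers each of the 3 genes was well above background on 1 of 6 control arrays, so that 1 control array gave a measured value. Their fitted differences in WT, 2.67 ± 0.43 for Kif2c, 2.76 ± 0.42 for Ckap2l and 2.42 ± 0.41 for Kif18b, became 1.80, 1.95 and 0.75 once dim arrays were raised to the floor. The 8 genes that passed the detection filter only through an FB1 group were Bub1, Bub1b, Ttk, Kif11, Kif2c, Kif4, Kif18b and Ckap2l. With dim arrays raised to the floor the median of the list was 2.44 in KO and 1.95 in WT.

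At the kinetochore, the structure that ties a centromere to microtubules, 6 of 7 genes were called higher in KO and 5 of 7 in WT. Spc25, a subunit of the NDC80 complex that grips the microtubule, had the smallest p of the list in KO livers. It lay between 1.34 and 2.50 (median 1.71) in KO FB1 arrays and between -0.98 and -0.29 (median -0.47) in KO control arrays. WT livers showed values between 1.72 and 2.81 (median 2.36) with FB1 and between 0.058 and 1.33 (median 0.35) without. The groups did not overlap in either genotype. The difference was 2.39 ± 0.24 in KO (adjusted p = 1.87e-07) and 1.70 ± 0.24 in WT (adjusted p = 0.000457). Cenpa encodes the histone H3 variant that marks centromeres. It lay between -0.79 and 0.42 (median -0.54) in KO FB1 arrays and between -2.41 and -1.77 (median -2.03) in KO control arrays, without overlap, and between -1.29 and 0.037 (median -0.62) in WT FB1 arrays and between -2.19 and -1.09 (median -1.77) in WT control arrays, with overlap. It rose by 1.65 ± 0.23 in KO (adjusted p = 7.36e-06) and by 1.06 ± 0.23 in WT (adjusted p = 0.00949). Nuf2, the partner of NDC80 in that complex, lay between -2.14 and -0.46 (median -1.24) in KO FB1 arrays and between -4.13 and -3.03 (median -3.94) in KO control arrays, and between -2.60 and -1.03 (median -1.42) in WT FB1 arrays and between -6.13 and -2.97 (median -4.70) in WT control arrays. The lowest WT FB1 array was closer to the highest WT control array than the KO groups were to each other, and no groups overlapped. Its differences were 2.64 ± 0.42 in KO (adjusted p = 3.72e-05) and 2.75 ± 0.42 in WT (adjusted p = 0.000682). Cenpe, a kinetochore motor, and Cenpf, a protein of the outer kinetochore, rose by 2.42 ± 0.41 and 3.01 ± 0.48 in KO and by 2.24 ± 0.41 and 2.91 ± 0.48 in WT.

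The remaining subunits of the NDC80 complex are Ndc80 and Spc24. Ndc80 lay between -4.11 and -2.71 (median -3.61) in KO FB1 arrays and between -5.26 and -4.63 (median -5.04) in KO control arrays, and between -4.80 and -3.403 (median -4.02) in WT FB1 arrays and between -5.74 and -4.19 (median -5.17) in WT control arrays. The KO groups were separate and the WT groups overlapped, and Ndc80 rose by 1.49 ± 0.29 in KO (adjusted p = 0.000321), while its difference of 0.98 ± 0.29 in WT missed the threshold (adjusted p = 0.0711). Spc24 lay between 1.30 and 2.69 (median 2.27) in KO FB1 arrays and between 2.07 and 2.40 (median 2.16) in KO control arrays, and between 1.78 and 2.56 (median 2.37) in WT FB1 arrays and between 1.69 and 2.23 (median 1.97) in WT control arrays. Its groups overlapped widely in both genotypes, and its differences of 0.0093 ± 0.18 in KO and 0.28 ± 0.18 in WT missed the threshold (adjusted p = 0.973 and 0.417). Spc24 was read by 1 tested probe, on chromosome 9 at 21560548 to 21560607.

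**Figure D2:**
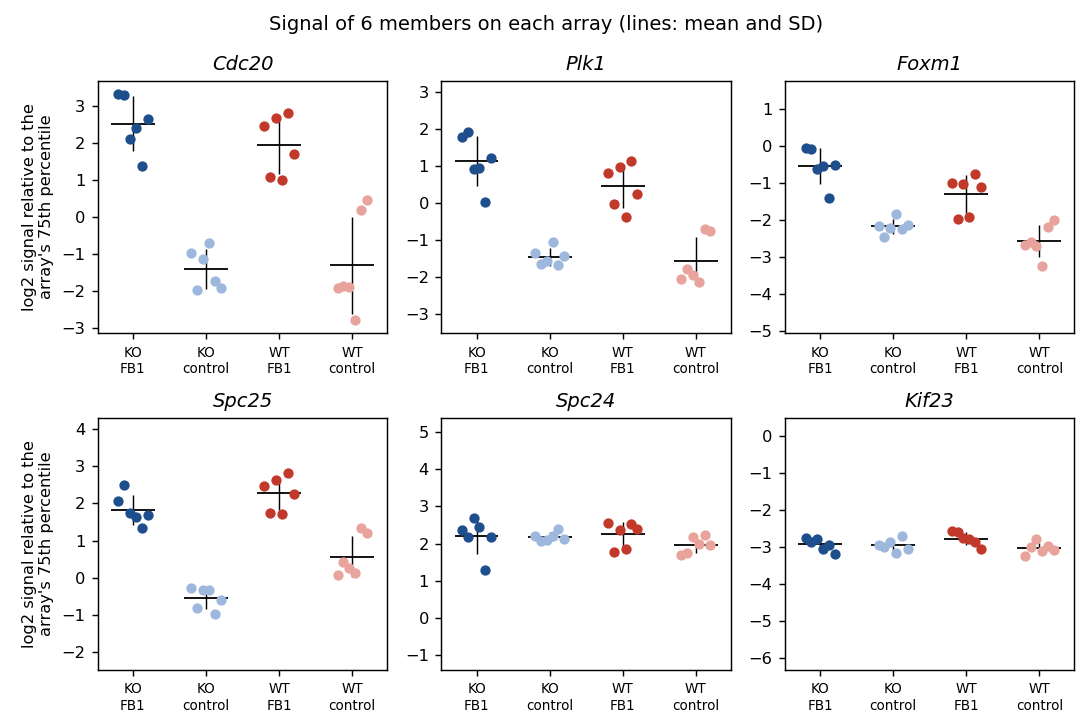
Log2 signal relative to the array's 75th percentile (vertical axes, each spanning the same number of log2 units) for Cdc20, Plk1, Foxm1, Spc25, Spc24 and Kif23 on each array of KO FB1, KO control, WT FB1 and WT control. Points are arrays, horizontal lines group means and vertical lines SDs of 6 arrays. The FB1 arrays stand above the controls of their own genotype for Cdc20, Plk1, Foxm1 and Spc25, narrowly so for Foxm1 in WT. They overlap those controls for Spc24 and Kif23.

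All 7 spindle genes were called higher after FB1 in both genotypes, with median log2 differences of 2.86 in KO and 2.52 in WT. One of them, Ckap2l, passed the detection filter only through an FB1 group, so it had to differ. Tpx2, which brings Aurora A to spindle microtubules, lay between -1.90 and -0.19 (median -0.86) in KO FB1 arrays and between -4.26 and -3.34 (median -3.89) in KO control arrays. Among WT arrays it ranged between -2.27 and -0.95 (median -1.62) with FB1 and between -5.44 and -2.74 (median -4.39) without. No FB1 array overlapped its controls, and the differences were 2.94 ± 0.37 in KO (adjusted p = 2.79e-06) and 2.46 ± 0.37 in WT (adjusted p = 0.000682). Prc1, which bundles the microtubules of the midzone, lay between 0.13 and 1.87 (median 0.91) in KO FB1 arrays and between -2.39 and -1.23 (median -2.04) in KO control arrays, and between -0.89 and 0.94 (median 0.048) in WT FB1 arrays and between -3.95 and -1.06 (median -2.81) in WT control arrays. Its groups were separate in each genotype, by differences of 2.97 ± 0.42 in KO (adjusted p = 8.85e-06) and 2.52 ± 0.42 in WT (adjusted p = 0.00111). Aspm, a spindle pole protein, rose by 2.86 ± 0.44 in KO and 2.97 ± 0.44 in WT, and Ckap2, a microtubule-associated protein, by 3.65 ± 0.54 and 3.55 ± 0.54. Both had wide WT control groups, between -6.72 and -3.12 (median -4.95) for Aspm and between -5.10 and -1.46 (median -3.86) for Ckap2, below WT FB1 arrays between -2.51 and -0.999 (median -1.81) for Aspm and between -0.65 and 1.23 (median 0.29) for Ckap2. The Ckap2 value in WT was the largest of the list in that genotype. Nusap1, which binds spindle microtubules near chromosomes, rose by 2.48 ± 0.43 in KO and 2.31 ± 0.43 in WT.

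Cytokinesis is led by the centralspindlin subunit RACGAP1, the RhoA activator ECT2 that it recruits, and anillin, which organises the contractile ring. The 3 genes were called higher after FB1 in both genotypes. Racgap1 lay between -0.80 and 0.9996 (median 0.12) in KO FB1 arrays and between -2.85 and -1.83 (median -2.49) in KO control arrays, and between -1.11 and 0.29 (median -0.26) in WT FB1 arrays and between -3.28 and -1.67 (median -2.77) in WT control arrays. The groups did not overlap, and it rose by 2.61 ± 0.33 in KO (adjusted p = 2.4e-06) and by 2.16 ± 0.33 in WT (adjusted p = 0.000682). Ect2 lay between -1.05 and 0.45 (median -0.48) in KO FB1 arrays and between -3.38 and -2.16 (median -3.15) in KO control arrays, and between -1.39 and 0.39 (median -0.34) in WT FB1 arrays and between -3.08 and -1.39 (median -2.31) in WT control arrays. In WT the lowest FB1 and the highest control array nearly met, and Ect2 rose by 2.60 ± 0.36 in KO (adjusted p = 7.65e-06) and by 1.80 ± 0.36 in WT (adjusted p = 0.00511). Anln, anillin, lay between -1.196 and 0.35 (median -0.80) in KO FB1 arrays and between -2.62 and -2.11 (median -2.51) in KO control arrays, and between -1.80 and -0.22 (median -0.66) in WT FB1 arrays and between -2.57 and -2.02 (median -2.18) in WT control arrays. Its WT controls were among the tightest of the list, and its differences were 1.89 ± 0.27 in KO (adjusted p = 9.18e-06) and 1.42 ± 0.27 in WT (adjusted p = 0.00292).

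Top2a, the topoisomerase that untangles sister chromatids, and Mki67, the Ki-67 protein that coats mitotic chromosomes and serves as a stain for cycling cells, were also called higher in both genotypes. Mki67 lay between 0.70 and 2.45 (median 1.75) in KO FB1 arrays and between -0.55 and 0.13 (median -0.48) in KO control arrays, without overlap. Values in WT livers ran between 0.0034 and 1.61 (median 1.12) with FB1 and between -2.46 and 0.15 (median -1.11) without, and the lowest FB1 array was below the highest control array. Its differences were 2.13 ± 0.36 in KO (adjusted p = 7.81e-05) and 1.98 ± 0.36 in WT (adjusted p = 0.00252). Top2a lay between -0.56 and 0.85 (median 0.33) in KO FB1 arrays and between -2.25 and -1.28 (median -1.83) in KO control arrays, and between -1.41 and 0.31 (median -0.10) in WT FB1 arrays and between -3.96 and -0.75 (median -2.37) in WT control arrays. It overlapped between FB1 and control in WT only, and its differences were 2.07 ± 0.39 in KO (adjusted p = 0.000211) and 1.92 ± 0.39 in WT (adjusted p = 0.0054). With WT FB1 and WT control arrays fitted alone, the adjusted p of Top2a in WT was 0.0653.

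**Figure D3:**
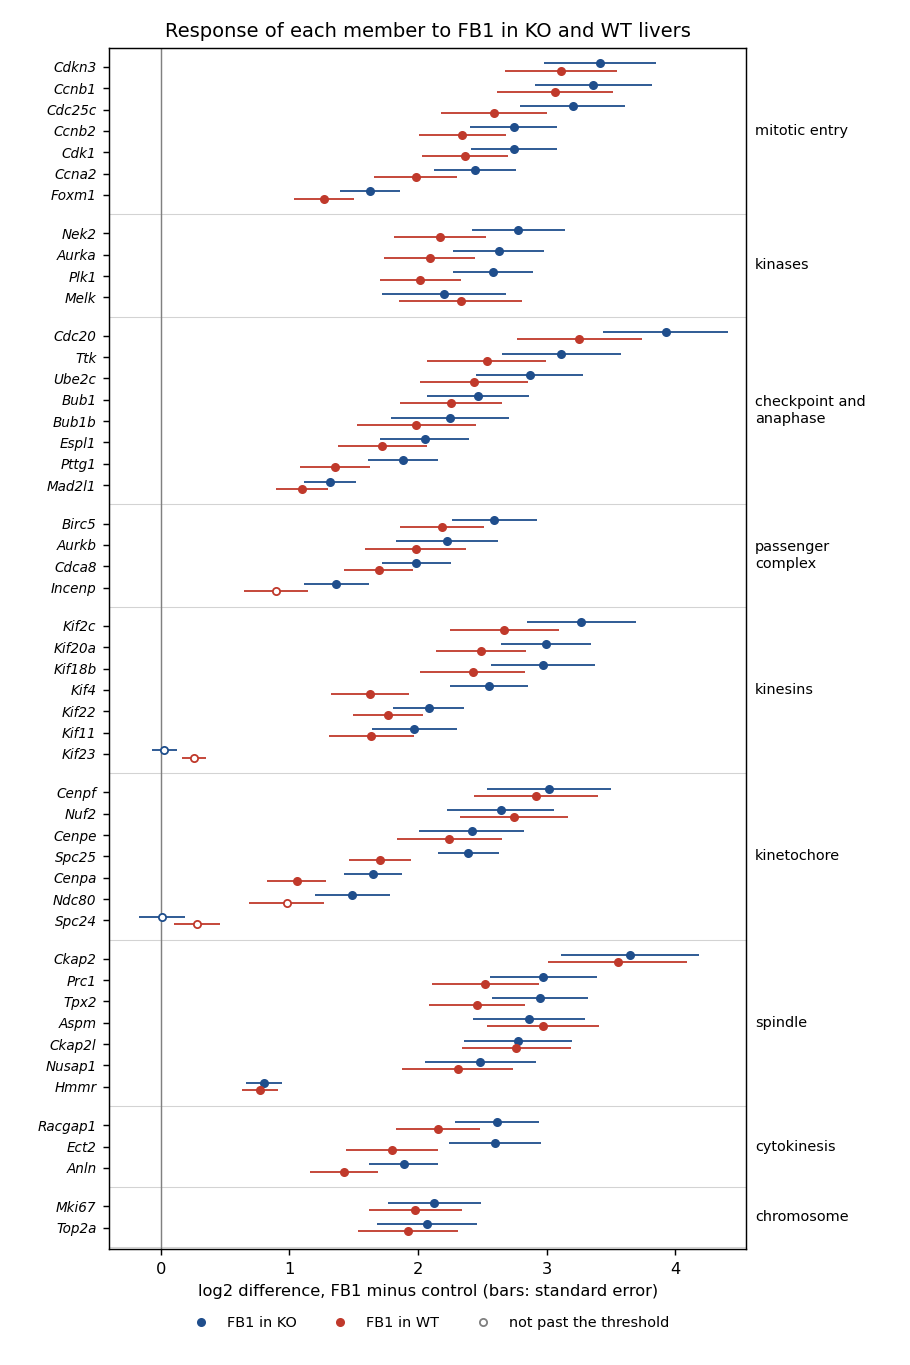
Log2 difference between FB1 and control arrays (horizontal axis) for each of the 49 genes (rows, grouped by role), in KO livers in blue and WT livers in red. Points are differences of group means of 6 arrays each, bars their standard errors, and open points did not pass the test. Nearly all points lie between 1 and 4, and Spc24 and Kif23 lie closest to 0 in both genotypes.

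Several members were read by more than 1 probe, and the choice of probe decided some values. Of the 20 genes with more than 1 tested probe, the probes agreed in call for 18 in KO and 17 in WT, and the 50 probes were positive in both. Kif23, a motor subunit of centralspindlin, lay between -3.18 and -2.75 (median -2.90) in KO FB1 arrays and between -3.16 and -2.71 (median -2.98) in KO control arrays at its brightest probe, on chromosome 9 at 61770729 to 61770788. WT livers showed values between -3.06 and -2.58 (median -2.77) with FB1 and between -3.24 and -2.79 (median -3.04) without. The groups overlapped widely, and its differences of 0.027 ± 0.10 in KO and 0.26 ± 0.10 in WT missed the threshold (adjusted p = 0.843 and 0.147). In a fit of all probes, the other tested Kif23 probes differed by 0.90 ± 0.34 and 1.47 ± 0.33 in KO (adjusted p = 0.0358 and 0.00132) and by 0.64 ± 0.34 and 0.89 ± 0.33 in WT (adjusted p = 0.325 and 0.161). The brightest probe is assigned in the files to another transcript record than these. Hmmr, a spindle and hyaluronan-binding protein, lay between -0.26 and 0.50 (median 0.087) in KO FB1 arrays and between -0.80 and -0.60 (median -0.63) in KO control arrays at its brightest probe. Among WT arrays it ranged between -0.40 and 0.30 (median 0.11) with FB1 and between -1.12 and -0.43 (median -0.78) without, and the groups were separate in both genotypes. That probe differed by 0.80 ± 0.14 in KO and 0.77 ± 0.14 in WT (adjusted p = 9.67e-05 and 0.00235). The other Hmmr probes differed by 3.92 ± 0.56 and 4.02 ± 0.43 in KO and by 2.96 ± 0.56 and 3.52 ± 0.43 in WT. They were well above background on 0 and 1 of 6 KO control arrays, so their fitted values rest on dim spots there.

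For Prc1, 4 of 5 tested probes were called higher in KO and 2 of 5 in WT, and the probe on chromosome 7 at 87449197 to 87449256 differed by 0.22 ± 0.36 in KO and 0.74 ± 0.36 in WT (adjusted p = 0.669 and 0.291). The 2 Incenp probes gave 1.36 ± 0.25 and 1.34 ± 0.22 in KO, and 0.90 ± 0.25 and 0.87 ± 0.22 in WT, where the second was called (adjusted p = 0.0363) and the first was not (adjusted p = 0.0572). The 2 Kif22 probes gave 2.08 ± 0.27 and 1.61 ± 0.42 in KO and 1.77 ± 0.27 and 1.24 ± 0.42 in WT, where the dimmer one missed the threshold (adjusted p = 0.121). When the mean of a gene's tested probes replaced the brightest one, 48 of the 49 genes were called higher in KO and 46 in WT.

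**Figure D4:**
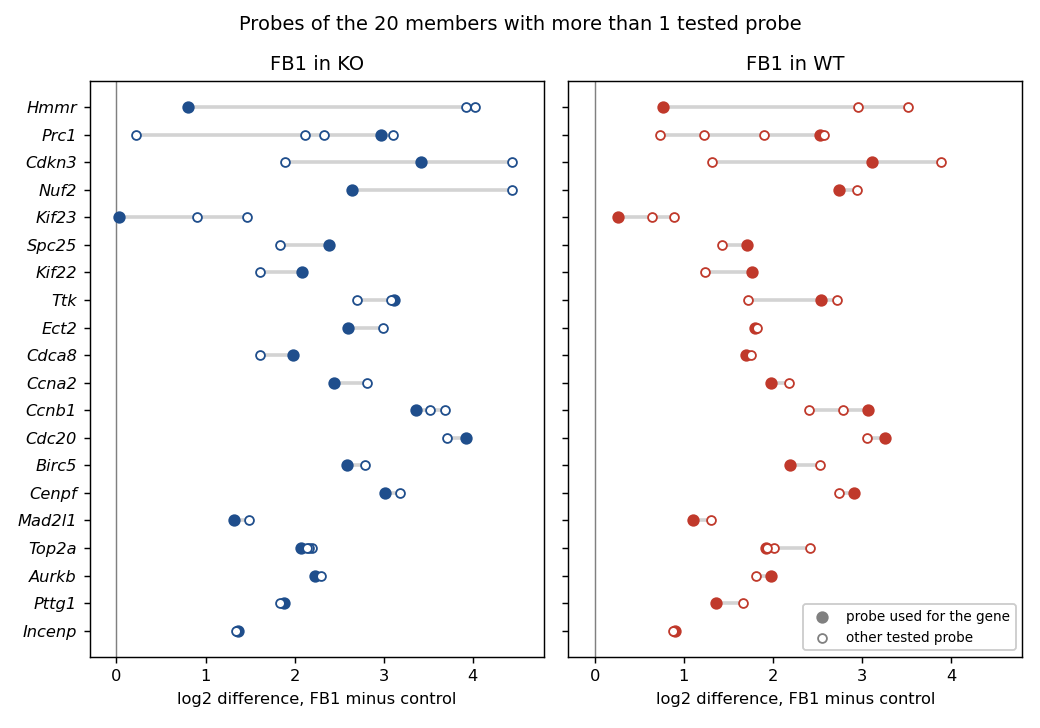
Log2 difference between FB1 and control arrays (horizontal axes) for each tested probe of the 20 genes with more than 1 tested probe (rows), in KO livers on the left and WT livers on the right. Filled points are the brightest probes, which stand for the gene, and open points the others. All 50 probes lie above 0 in both panels, and the probes of Hmmr lie 3.92 and 4.02 against 0.80 in KO.

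Without FB1, few members were called different between the genotypes. Of the 49 genes, 1 was called lower and 0 higher in KO control against WT control livers, where 8.02% of all genes were called lower and 7.21% higher. The median difference was 0.16, beside 0.014 over all genes. Of the 49 differences 37 were positive, a count of genes that share arrays and moved together. An unadjusted p under 0.05 was reached by 2 of the 49. The called gene was Spc25, which lay between -0.98 and -0.29 (median -0.47) in KO control arrays and between 0.058 and 1.33 (median 0.35) in WT control arrays. These groups did not overlap, and the difference was -1.13 ± 0.24 (adjusted p = 0.00174). Its other tested probe, on chromosome 2 at 69038061 to 69038120, differed by -0.67 ± 0.20 (adjusted p = 0.0291), so both Spc25 probes were lower in KO. The dimmer of the 2 tested Nuf2 probes, on chromosome 1 at 171440451 to 171440510, also differed, by -2.17 ± 0.44 (adjusted p = 0.00129), against 0.62 ± 0.42 (adjusted p = 0.382) at the brighter one in the fit of all probes. It was well above background on 0 of 6 KO control and 2 of 6 WT control arrays, so its value rests on dim spots in both groups. With FB1 the Spc25 difference between KO and WT was -0.45 ± 0.24 and missed the threshold (adjusted p = 0.162). The next smallest p values were those of Bub1, Ect2, Mki67 and Melk. Bub1, a checkpoint kinase, lay between -5.34 and -4.26 (median -4.95) in KO control arrays and between -7.47 and -4.55 (median -5.61) in WT control arrays, a difference of 0.82 ± 0.39 (adjusted p = 0.185). Ect2 differed by -0.72 ± 0.36, Mki67 by 0.66 ± 0.36 and Melk by 0.83 ± 0.48, with adjusted p of 0.203, 0.254 and 0.283. Their groups overlapped. Within slides 1, 2 and 3 the median of the list was -0.24, 0.79 and 0.016, so its sign differed between slides.

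With FB1 in both genotypes, Foxm1, Incenp, Kif4 and Bub1 were called higher in KO than in WT livers. Of the 49 genes, 4 were called higher and 0 lower, a share of 8.16% where 14.5% of all genes were called higher and 18.3% lower. Of the 49 differences, 46 were positive, a count of genes that share arrays and moved together. The median was 0.57, beside -0.030 over all genes, and 0 of the 49 genes had KO arrays entirely above WT arrays (7.06% of all genes). Foxm1 lay between -1.43 and -0.073 (median -0.55) in KO FB1 arrays and between -1.99 and -0.77 (median -1.09) in WT FB1 arrays, and differed by 0.76 ± 0.23 (adjusted p = 0.0153). Incenp, with the values given above, differed by 0.74 ± 0.25 (adjusted p = 0.0269). Kif4 differed by 0.79 ± 0.30 (adjusted p = 0.0479). Bub1 lay between -3.17 and -1.69 (median -2.46) in KO FB1 arrays and between -4.24 and -2.88 (median -3.26) in WT FB1 arrays, and differed by 1.03 ± 0.39 (adjusted p = 0.0483). In each of these 4 genes the KO and WT arrays overlapped. With slide as a block Kif4 missed the threshold (adjusted p = 0.0541), and the calls of Kif4 and Bub1 depended on the fit. In the fit of all probes the second Incenp probe differed by 0.72 ± 0.22 (adjusted p = 0.0175), and 1 of the other Kif23 probes was higher in KO by 1.005 ± 0.33 (adjusted p = 0.0244). Espl1 lay between -2.56 and -1.05 (median -1.75) in KO FB1 arrays and between -3.38 and -1.98 (median -2.55) in WT FB1 arrays, and its difference of 0.89 ± 0.35 missed the threshold (adjusted p = 0.0507).

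The count of 4 rested on single arrays. It reached 12 when KO FB1 replicate 5 was left out. It reached 7 when WT FB1 replicate 5 or WT control replicate 6 was. It was 1 without any of KO FB1 replicates 1, 2 and 6 or WT FB1 replicates 2 and 4. It was 2 without KO FB1 replicate 4, WT FB1 replicate 6 or any of KO control replicates 1, 2, 3, 5 and 6. Foxm1 was called with any array left out, while Bub1 and Kif4 each lost the call in 15 of the 24 cases and Incenp in 5. The lowest differences among them were 0.63 for Foxm1 and 0.59 for Incenp, both without WT FB1 replicate 2, and 0.87 for Bub1 and 0.58 for Kif4, both without WT FB1 replicate 4. Within slides 1, 2 and 3 the median of the list was -0.13, 0.43 and 1.36, with 15, 45 and 47 of the 49 genes higher in KO.

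The response to FB1 was not called different between the genotypes for any member. In limma's test of the difference of the FB1 effects, KO minus WT, 0 of the 49 genes were called, where 4.46% of all genes were called higher and 4.84% lower, and 1 of the 49 had an unadjusted p under 0.05. That gene was Kif4, whose effects of 2.55 ± 0.30 in KO and 1.63 ± 0.30 in WT differed by 0.92 ± 0.43 (adjusted p = 0.18, the lowest of the list). Spc25 followed with a difference of 0.69 ± 0.34 (adjusted p = 0.214), then Cenpa with 0.59 ± 0.32 (adjusted p = 0.262). Kif23 differed by -0.23 ± 0.14 and Ect2 by 0.80 ± 0.51, with adjusted p of 0.303 and 0.351. The median difference of the list was 0.38, beside -0.043 over all genes. Of the 49 values 44 were positive, a count of genes that share arrays and moved together. Within slides 1, 2 and 3 that median was 0.11, -0.30 and 1.33. Within the same slides the median response was 2.58, 2.30 and 2.74 in KO and 2.46, 2.58 and 1.34 in WT, so both responses were positive on each slide.

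Other genes of the pathway were taken from lists drawn up with earlier results of these data known. A list of 86 further genes of mitosis, condensin, centromere and spindle assembly had 84 tested genes. Their median log2 differences after FB1 were 1.06 in KO and 0.91 in WT. Of all tested genes, FB1 raised 16.5% and lowered 24.6% in KO livers, and raised 2.06% and lowered 0.824% in WT livers. In KO livers FB1 raised 61 of the 84 listed genes and lowered 3, and in WT livers it raised 48 and lowered 0. By smallest p in KO these were Psrc1, a spindle protein (3.04 ± 0.34, adjusted p = 6.97e-07), Tacc3, a stabiliser of spindle microtubules (1.91 ± 0.23, adjusted p = 1.98e-06), and Sapcd2, a regulator of spindle orientation (2.68 ± 0.34, adjusted p = 2.59e-06). In WT they were Dsn1, of the kinetochore's MIS12 complex (1.44 ± 0.22, adjusted p = 0.000682), Zwilch, of the checkpoint's RZZ complex (1.44 ± 0.22, adjusted p = 0.000682), and Cdca3, which helps destroy the CDK1 inhibitor WEE1 (2.41 ± 0.37, adjusted p = 0.000682). Between KO and WT livers with FB1, 15 of the 84 were called higher and 4 lower, beside 14.5% and 18.3% of all genes, and 75 differences were positive. Without FB1, 2 were called higher and 2 lower, beside 7.21% and 8.02% of all genes. Hjurp, the chaperone that loads CENP-A at centromeres, had the lowest difference of this list in both comparisons and was lower in KO with and without FB1. It averaged -2.30 in KO FB1 arrays and 0.80 in WT FB1 arrays, and -1.77 in KO control arrays and 0.54 in WT control arrays. KO and WT arrays of the same treatment did not overlap, and the difference was -3.10 ± 0.21, adjusted p = 6.61e-11 with FB1 and -2.30 ± 0.21, adjusted p = 1.39e-08 without. Cdc25a, a phosphatase that activates CDK2 and CDK1, and Wee1, the kinase that restrains CDK1, were the genes of this list whose FB1 effects were called different, by 0.72 ± 0.20, adjusted p = 0.027 and 0.93 ± 0.29, adjusted p = 0.0445. That is 2 of the 84 higher and 0 lower, where 4.46% of all genes were called higher and 4.84% lower, so the count does not exceed those shares.

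The 15 constitutive subunits of the APC/C, which are made throughout the cell cycle, had small differences. In KO livers FB1 raised 3 of them and lowered 3, beside 16.5% of all genes higher and 24.6% lower, and in WT livers 0 of 15 were called either way (lowest adjusted p 0.316, for Anapc11, and 0 of 15 with an unadjusted p under 0.05), with medians of -0.057 in KO and 0.015 in WT. The largest change in KO was that of Cdc27, at 0.35 ± 0.10. The 16 genes of DREAM, its MYB and E2F partners and NF-Y had 5 genes called higher and 2 lower in KO, beside the same shares. In WT 2 of the 16 were called higher and 0 lower, beside 2.06% of all genes higher and 0.824% lower. Mybl1, a MYB family transcription factor that can bind the MuvB core, averaged -0.98 in KO FB1 arrays and -4.76 in KO control arrays, and -2.48 in WT FB1 arrays and -4.41 in WT control arrays. Mybl1 rose by 3.78 ± 0.41, adjusted p = 5.1e-07 in KO and 1.92 ± 0.41, adjusted p = 0.00942 in WT, and its effects differed by 1.86 ± 0.59, adjusted p = 0.0475. Lin9, a MuvB subunit, rose by 0.80 ± 0.14, adjusted p = 0.00204 in WT. Rbl1 (p107), a pocket protein, rose by 0.82 ± 0.19, adjusted p = 0.00153 in KO, and Rbl2 (p130), the pocket protein of resting cells, fell by 0.67 ± 0.16 in KO (adjusted p = 0.00258).

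Markers of other cells were read beside the mitosis genes, since a liver sample holds them too. Their part in the rise of the 49 genes was not tested. The deviation of each marker from its WT control mean was reduced to a median per array. Counts of markers stand beside 16.5% of all genes called higher and 24.6% lower after FB1 in KO, and 2.06% higher and 0.824% lower in WT. Of 12 markers of recruited macrophages, 10 were called higher after FB1 in KO and 6 in WT. Their array medians lay between 2.60 and 3.41 in KO FB1 arrays and 0.86 and 1.35 in KO control arrays, and between 0.37 and 1.33 in WT FB1 arrays and -0.58 and 0.52 in WT control arrays. Trem2, a lipid receptor of such macrophages, rose by 2.87 ± 0.29, adjusted p = 1.89e-07 in KO and 1.77 ± 0.29, adjusted p = 0.00102 in WT. Gpnmb was well above background on 0 of 6 WT control arrays. Of 11 stellate cell and matrix markers, 8 were higher after FB1 in KO and 3 in WT, led by the collagen genes, with Col1a1 at 2.75 ± 0.32, adjusted p = 9.5e-07 in KO and 1.53 ± 0.32, adjusted p = 0.00698 in WT. Their array medians lay between 0.59 and 0.89 in KO FB1 arrays and -0.092 and 0.56 in KO control arrays, and between 0.15 and 0.58 in WT FB1 arrays and -0.068 and 0.042 in WT control arrays. Of 12 hepatocyte markers, 6 were lower after FB1 in KO and 0 changed past the threshold in WT, and all 12 were well above background on all 24 arrays. Of 10 endothelial markers, 8 were lower after FB1 in KO and 0 were called in WT.

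Precursor cells of the blood also express mitosis genes, and markers of blood cells and their precursors were read in the same way. The neutrophil list, with 11 tested of 12 markers, covers neutrophils and their precursors and is not limited to dividing cells. Of the 11, 1 was called higher and 1 lower after FB1 in KO, and 1 higher in WT. The KO counts do not exceed the 16.5% of all genes called higher and 24.6% called lower. In WT Camp, an antimicrobial granule peptide, rose by 1.45 ± 0.39, adjusted p = 0.0407. Below the calls, 11 of the 11 differences were positive in WT, 8 with an unadjusted p under 0.05 and a median of 1.45, and 9 of the 11 were positive in KO, with a median of 0.87 and 3 under that unadjusted p. The array medians of this list lay between -1.52 and -0.077 in KO FB1 arrays and between -1.94 and -0.47 in KO control arrays. In WT they lay between 0.49 and 2.82 with FB1 and between -2.04 and 1.37 without. The lowest and highest WT control arrays were replicates 4 and 6, which were also the lowest and highest for the median of the 49 genes. The same arrays were the lowest and highest for the recruited macrophage markers. Replicate 4 was also the lowest for the resident macrophage and both lymphocyte lists. The highest WT control array was replicate 6 for the erythroid, APC/C subunit and DREAM lists too. It was another replicate for the resident macrophage, lymphocyte, endothelial, stellate, cholangiocyte and hepatocyte lists. Among WT FB1 arrays, replicates 4 and 5 were the lowest and highest for the neutrophil list and the 49 genes. There replicate 5 was also the highest for the APC/C subunit and DREAM lists, and the lowest for the cholangiocyte and hepatocyte lists. Among KO FB1 arrays they were 6 and 3 for the neutrophil list and 5 and 2 for the 49 genes. In KO control arrays replicate 4 was the lowest for the neutrophil list and the highest for the mitosis genes. Of the 8 tested of 12 erythroid markers, 0 were called higher after FB1 in either genotype and 1, the erythroid factor Klf1, fell by 1.60 ± 0.20 in KO (adjusted p = 1.93e-06). Rhag was well above background on no array. In WT the erythroid array medians lay between -0.021 and 0.82 with FB1 and between -0.81 and 0.63 without, and in KO between -0.050 and 0.84 with FB1 and between 0.34 and 0.89 without. Of the lymphocyte lists, 5 of 6 tested B and plasma cell markers rose in KO and 0 in WT, and 2 of 9 tested T and NK cell markers rose in KO and 0 in WT. The T and NK cell count lies near the 16.5% of all genes called higher in KO. Of 10 markers of resident macrophages, 2 were higher and 2 lower after FB1 in KO and 0 were called in WT. Those KO counts lie near the 16.5% of all genes called higher and 24.6% called lower. In KO control against WT control livers 9 of the 10 were lower, where 8.02% of all genes were called lower. Of 8 tested cholangiocyte markers, 1 was called higher in KO, Sox9 at 1.89 ± 0.27, adjusted p = 1.2e-05, and 0 in WT. The KO counts of the cholangiocyte and erythroid lists do not exceed the 16.5% of all genes called higher and 24.6% called lower.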

How the data were processed

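Liver RNA of 24 mice was measured on 24 1-colour Agilent arrays. The intensity values deposited for each array were made by the authors with Agilent Feature Extraction 10.10.1.1, per the file headers: spot signals were background-subtracted and detrended, and low values were replaced by a surrogate. The authors' deposited table holds log2 values that are not centred by gene, with column medians of 7.858 to 7.8632. Per the submitters' processing notes limma was used, but no source at hand describes its filter or background step. All 24 columns matched their own arrays best.

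Processed signals were put on the log2 scale and the 75th percentile of each array was subtracted. Control spots and spots marked as outliers (64 to 121 per array) were left out, and 0 spots were saturated. Tests were run on probes that at least 1 group showed well above background on all its unmarked arrays, provided that no group had fewer than 4 values. This held for 33417 of 56605 probes. The brightest tested probe, by mean, stood for each gene. In R 4.3.3, limma 3.58.1 estimated the 4 group means, with 2-sided moderated tests and Benjamini-Hochberg adjustment over 22088 genes at 0.05. The fit was also run on simulated arrays with independent noise for each gene, unlike the members, which varied together. That run is not used as support for the calls. Promoters and figures were made with Python 3.11.15 and matplotlib 3.10.9.

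The members and all lists were chosen with earlier results of these data known. Full values are given for the 2 members per role with the smallest p after FB1 in each genotype, for the 5 with the smallest p between genotypes, and for members that were not called or whose probes disagreed. From other lists, up to 3 called genes with the smallest p were eligible. Members singled out beyond these, such as those of the NDC80 complex, were chosen after their values were seen. Other settings tried were the authors' values, quantile normalization, normexp background (offset 50), looser and stricter detection filters, averaged probes, array weights, blocks for slide or for replicate number, single slides, the compared groups alone, and leaving out each array.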

Additional observations from a re-analysis of the deposited data

Results flagged for a closer look

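Among 200 sets of 6 arrays (each member, and the list's array medians, in each group), 4 held an array whose distance from the rest was large for the range of its group by Dixon's test. Chance gives about 1 in 20 such sets. In each case the array was KO control replicate 4, and it was the highest of its group. Ccna2 was -1.51 on that array, with the next KO control array at -1.94. Cenpe was -1.73, with the next at -2.35. Nuf2 was -3.03, with the next at -3.76. Mki67 was 0.13, with the next at -0.41. The same array was the highest of the KO control group for 38 of the 49 genes.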

How the results depend on the processing

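Of 1714 values of named members under other settings, 1659 kept their sign and their side of the threshold, 43 lost a call, 11 gained one and 1 changed sign, the difference of the FB1 effects of Kif23, which was not called. With normexp background the median of the list after FB1 was 1.61 in KO and 1.31 in WT, and with the authors' values it was 1.90 in KO and 1.42 in WT. With probes kept only if well above background on all 24 arrays, 29 members were left, of which 27 were called higher in KO and 26 in WT. The count of members called between KO and WT with FB1 was 7 with normexp, 8 with the authors' values and 2 without a detection filter. The cause of these shifts was not tested. Within slide 1 the median between KO and WT with FB1 was -0.13, and within slide 3 it was 1.36. Within slide 2 the median between KO and WT without FB1 was 0.79. The median difference of the FB1 effects was -0.30 within slide 2 and 1.33 within slide 3, and the median after FB1 in WT was 1.34 within slide 3. With each array left out in turn, 47 members stayed called after FB1 in KO, 44 to 47 were called in WT, and 1 to 12 were called between KO and WT with FB1. Of all genes, 638 were called after FB1 in WT, against 424 with the authors' values, 381 with the groups fitted alone and 386 without WT FB1 replicate 1. For the difference of the effects 2055 genes were called, against 1258 without a filter. The same replicate numbers recur in all groups, but deviations of same-numbered arrays correlated at -0.20 to 0.24 over 36 pairs, so the numbers were not taken as pairs. With the replicate block the counts of members called were 47 after FB1 in KO, 45 in WT, 1 between genotypes without FB1, 2 with FB1, where Kif4 (adjusted p = 0.0684) and Bub1 (adjusted p = 0.0517) were lost, and 0 for the difference. Dim control arrays limit the folds of members near background.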
